A study of Mus musculus with 6 samples.

Results

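The genes described here encode factors that build ribosomes in the nucleolus. They were chosen by name: every gene whose symbol in the platform annotation is Rrp, Utp, Nop or Nol with a number, or Polr1 with a letter, together with Dkc1, Gar1, Nhp2, Fbl, Ncl, Npm1, Nolc1, Bop1, Pes1, Wdr12, Wdr43 and Mybbp1a. The rule found 54 genes among the 18193 measured through a probe set of their own. None of them was dropped, since no filter on low values was applied. Each gene was read through 1 probe set, the brightest of those paired with that gene alone, and 38 of the 54 genes had 2 or more to choose from. The values are intensities on a linear scale, and levels of different genes were not compared.

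Female CD-1 mice gave back skin, and flow cytometry separated 3 hair follicle populations from it, each measured on 2 Affymetrix arrays. The quiescent stem cells (qHF-SC) came from mice at postnatal days 52 to 60 by integrin α6 and CD34. The activated stem cells (aHF-SC) and the transient-amplifying matrix cells (HF-TAC) came from mice at postnatal days 28 to 30, the former by GFP, integrin α6 and CD34 and the latter by GFP, integrin α6 and ephrinB1. The mice received no treatment. The source of the GFP is not named in the labels, nor is which side of each marker was kept, nor how many animals went into an array. The sorting scheme changes with cell state in every comparison, so it cannot be told apart from state. Age cannot be told apart from state in the comparisons with qHF-SC, while aHF-SC and HF-TAC came from mice of the same age range. The labels do not tie replicates to separate animals. The p-values therefore cover only array-to-array spread, which may be technical.

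Markers of the named cell types were in place. All 15 bulge stem cell genes of the list used here were lower in HF-TAC than in aHF-SC, with a median log2 difference of -3.05, and 9 of 13 matrix genes were higher, with a median of 3.06. Of 21 genes of the G2/M phase and mitosis, 18 were higher in aHF-SC than in qHF-SC and 21 in HF-TAC than in aHF-SC. Array medians lay between 22.8 and 24.0 and upper quartiles between 118 and 129, so the arrays were on 1 scale. A scale fixed in this way shows the share of a transcript in the RNA of a population, and a difference in the amount of RNA per cell, or in the number of cells of a kind within a sort, cannot be told apart from it.

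Ribosomes are assembled in the nucleolus, where RNA polymerase I transcribes the long precursor of the ribosomal RNAs. Small nucleolar ribonucleoproteins of the box C/D and box H/ACA types then modify that precursor, the small subunit processome folds and cuts it on the way to the small ribosomal subunit, and a second set of factors carries the large subunit to export. Cells that grow and divide need many new ribosomes, and matrix cells of the growing hair follicle are among the fastest dividing cells of the skin. Bulge stem cells divide rarely.

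Most transcripts of these factors were higher in HF-TAC than in qHF-SC, 27 of them were higher than in aHF-SC, and Polr1e alone passed the test between the stem cell populations. Of the 54 genes, 35 were higher and 2 lower in HF-TAC than in qHF-SC at an adjusted p under 0.05 (limma, Benjamini-Hochberg over 18193 genes), where 13.4% of all genes were higher and 12.9% lower. In HF-TAC against aHF-SC 27 were higher and 1 was lower, against 8.97% and 8.57% of all genes. In aHF-SC against qHF-SC 1 was higher and 0 were lower by limma, against 3.07% and 3.21% of all genes. An unadjusted p under 0.05 was reached there by 8 of the 54 genes, or 14.8%, and by 20.3% of all genes. The share of all genes with an unadjusted p under 0.05 was 29.0% in HF-TAC against aHF-SC and 35.9% in HF-TAC against qHF-SC, and the counts given for classes of genes below are to be read against these shares. Calls in either direction made up 6.28%, 17.5% and 26.3% of all genes in aHF-SC against qHF-SC, HF-TAC against aHF-SC and HF-TAC against qHF-SC. With array weights Nol8 also passed in aHF-SC against qHF-SC, as lower. The median log2 difference of the 54 genes was 0.77 in HF-TAC against qHF-SC (a 1.70-fold rise), 0.69 in HF-TAC against aHF-SC and 0.07 in aHF-SC against qHF-SC, while that of all genes lay between -0.01 and 0.005. The comparisons share arrays and are not independent of each other.

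**Figure D1:**
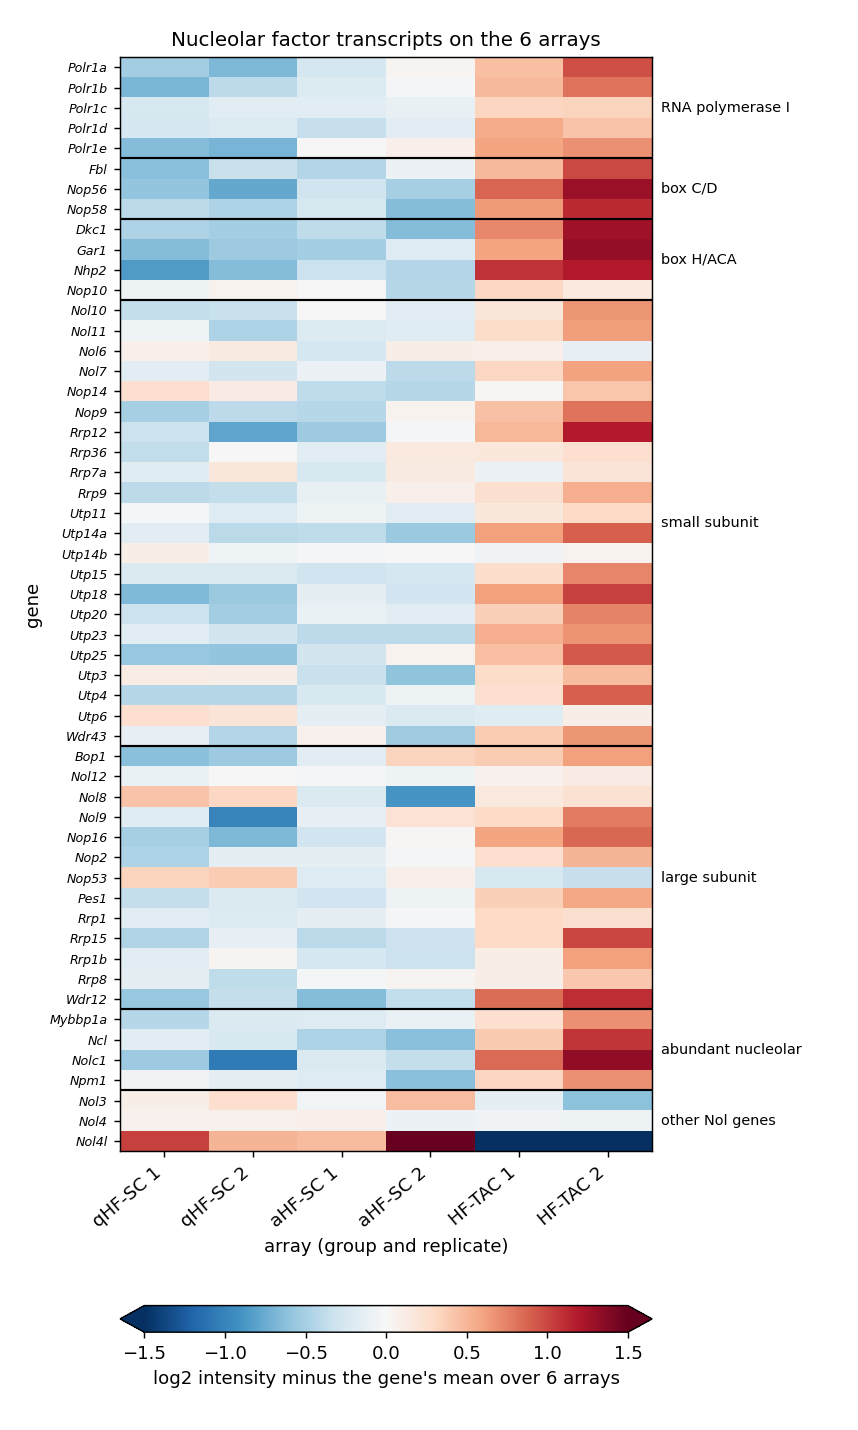
Heat map of the 54 genes (rows, grouped by role) on the 6 arrays (columns); colour gives the log2 intensity minus the mean of that gene over the 6 arrays, cut at 1.5 either way. The HF-TAC columns are red for most genes, replicate 2 more so than replicate 1, and the exceptions include Nol4l, Nop53 and Nol6.

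Both HF-TAC arrays stood above all 4 stem cell arrays for 44 of the 54 genes, as they did for 19.6% of all genes. Pair by pair, they lay above both aHF-SC arrays for 46 and below for 3 of the 54 genes (26.4% and 27.9% of all genes), and above both qHF-SC arrays for 44 and below for 6 (30.0% and 31.2%). The group mean was highest in HF-TAC for 46 of the 54 genes and for 36.4% of all genes. It was lowest in qHF-SC for 29 and in aHF-SC for 21 of the 54, and for 35.6% and 25.3% of all genes. The HF-TAC arrays were not alike: replicate 2 exceeded replicate 1 for 47 of the 54 genes, with a median log2 gap of 0.29, while it did so for 53.3% of all genes. The corresponding gaps within qHF-SC and aHF-SC were -0.01 and 0.05.

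**Figure D2:**
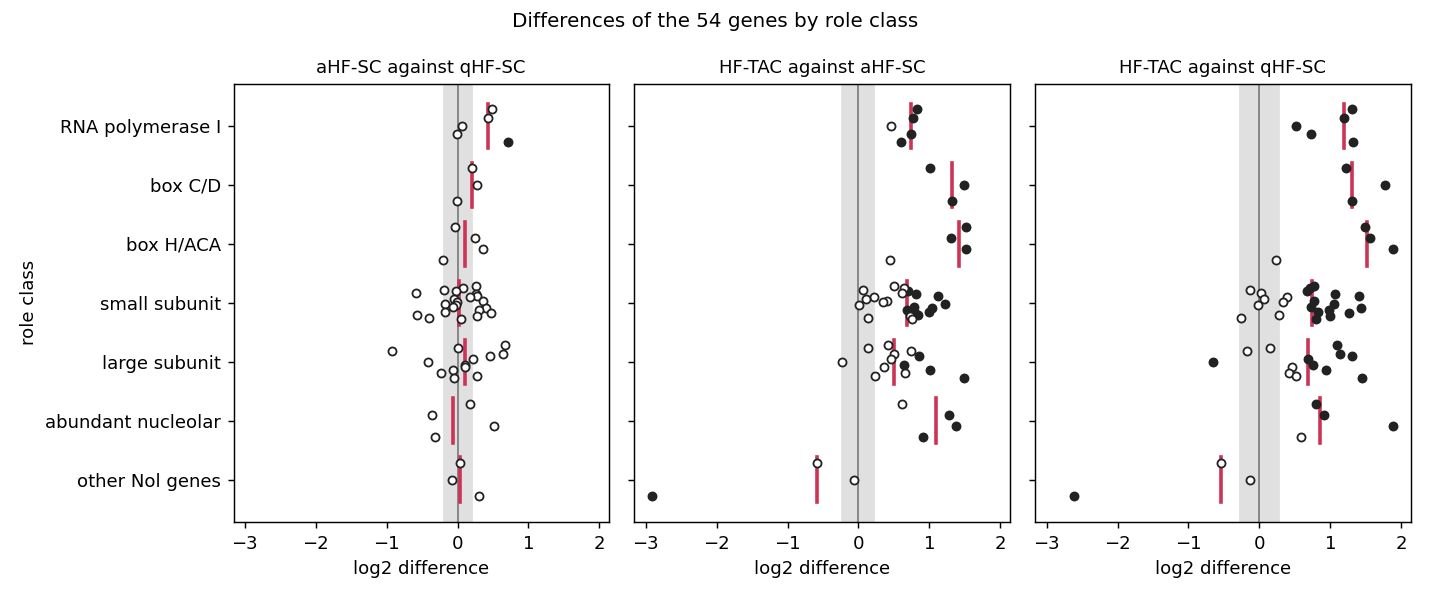
Log2 differences of the 54 genes (points) by role class (rows) in the 3 comparisons (panels); filled points passed the threshold, red bars are class medians, the grey band holds the middle quartiles of all genes and the grey line is their median. The box C/D and box H/ACA classes have medians of 1.32 and 1.41 in HF-TAC against aHF-SC, and in aHF-SC against qHF-SC the class medians run from -0.07 to 0.42.

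RNA polymerase I is represented by 5 genes, and all 5 were higher in HF-TAC than in qHF-SC. Their median log2 difference was 1.19, and 4 of them also were higher than in aHF-SC, with a median of 0.74. Polr1e, a subunit that works with the initiation machinery, read 93.9 and 90.5 in qHF-SC, 147 and 155 in aHF-SC and 223 and 237 in HF-TAC. The 3 pairs of arrays did not overlap and stepped upward from qHF-SC through aHF-SC to HF-TAC. It was the single gene of the 54 to pass in aHF-SC against qHF-SC (1.64-fold, 0.71 ± 0.14 SE in log2 units, adjusted p = 0.0343), and it was 1.52-fold higher in HF-TAC than in aHF-SC (adjusted p = 0.0279) and 2.49-fold higher than in qHF-SC (0.000726). The Polr1e call in aHF-SC against qHF-SC ended when its probe sets were averaged (0.114), without probe sets that can cross-hybridise (0.554), when replicate number entered as a block (0.0584), with an intensity trend (0.0571) and on leaving out either qHF-SC array or either aHF-SC array (0.118 to 0.197). The Polr1e call against aHF-SC ended with an intensity trend (0.0547) and on leaving out either qHF-SC array, either aHF-SC array or either HF-TAC array (0.0544 to 0.113), while that against qHF-SC passed in every setting tried. In these sentences and those like them, the values in parentheses are adjusted p from limma under that setting, and either array means that each was left out by itself.

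The catalytic core of the polymerase is formed by its largest subunits, which Polr1a and Polr1b encode. Polr1a read 67.7 and 60.9 in qHF-SC, 81.0 and 99.8 in aHF-SC and 133 and 189.7 in HF-TAC, a rise of 1.77-fold over aHF-SC and 2.47-fold over qHF-SC. Polr1b read 41.9 and 51.7 in qHF-SC, 58.7 and 66.4 in aHF-SC and 94.4 and 119 in HF-TAC, and rose 1.70-fold and 2.28-fold. For both genes every array of HF-TAC lay above every stem cell array, and both aHF-SC arrays lay above both qHF-SC arrays without passing the test (log2 differences 0.49 and 0.42, adjusted p = 0.264 and 0.271). The Polr1a call against aHF-SC ended when its probe sets were averaged (0.124) and on leaving out either qHF-SC array, either aHF-SC array or HF-TAC replicate 2 (0.0664 to 0.172), while that against qHF-SC passed in every setting tried. For Polr1a the log2 difference against qHF-SC was 0.57 when its probe sets were averaged. The brightest of its other 4 probe sets, at 51.2 to 134, differed by 0.75 against aHF-SC and 1.29 against qHF-SC. Of these 4, 3 rose in each comparison. The average also took in probe sets that read 4.36 to 6.78, where array minima were 3.83 to 3.98. Averages of Nol9, Utp18, Utp25 and Wdr12, given below, likewise took in a probe set that read between 5.14 and 10.1. The Polr1b call against aHF-SC ended on leaving out either aHF-SC array or HF-TAC replicate 2 (0.0885 to 0.146), while that against qHF-SC passed in every setting tried.

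Polr1c and Polr1d encode subunits that RNA polymerase I shares with RNA polymerase III. Polr1c read 586 and 622 in qHF-SC, 623 and 642 in aHF-SC and 863 and 874 in HF-TAC, a narrow but non-overlapping rise of 1.44-fold over qHF-SC (adjusted p = 0.0321). Polr1d read 1478 and 1541 in qHF-SC, 1403 and 1596 in aHF-SC and 2622 and 2386 in HF-TAC, and rose 1.67-fold over aHF-SC and 1.66-fold over qHF-SC. The other 3 probe sets of Polr1d differed by 0.09 to 0.16 on the log2 scale in HF-TAC against aHF-SC and by 0.09 to 0.14 against qHF-SC, so the Polr1d rise rests on 1 of 4 probe sets. The Polr1c call against qHF-SC ended when its probe sets were averaged (0.0753), on scaling to the 75th percentile (0.0617) and on leaving out either qHF-SC array, either aHF-SC array or either HF-TAC array (0.051 to 0.149). The Polr1d call against aHF-SC ended when its probe sets were averaged (0.215) and on leaving out aHF-SC replicate 1 or HF-TAC replicate 1 (0.0643 to 0.0839). The Polr1d call against qHF-SC ended when its probe sets were averaged (0.199) and on leaving out either qHF-SC array or HF-TAC replicate 1 (0.0512 to 0.068).

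The box C/D particles methylate ribosomal RNA at sites chosen by their guide RNA. All 3 genes placed in the box C/D class rose in HF-TAC, with a median log2 difference of 1.32 against aHF-SC and 1.31 against qHF-SC. Between the stem cell groups 0 of 3 passed by limma and 0 had an unadjusted p under 0.05. Rrp9, also of a box C/D particle, was placed in the small subunit class. Its log2 difference against aHF-SC was 0.41 and did not pass. Fbl, which encodes the methyltransferase fibrillarin, read 1107 and 1355 in qHF-SC, 1253 and 1604 in aHF-SC and 2394 and 3388 in HF-TAC. Nop56, a scaffold protein of the particle, read 530.1 and 471 in qHF-SC, 649 and 566 in aHF-SC and 1469 and 1963 in HF-TAC. Its partner Nop58 read 329.6 and 316 in qHF-SC, 370.2 and 279 in aHF-SC and 678 and 947 in HF-TAC. HF-TAC lay clear of all stem cell arrays for each of these genes, while the qHF-SC and aHF-SC ranges met for Fbl and Nop58. Against aHF-SC, Nop56 rose 2.80-fold (1.49 ± 0.19 SE, adjusted p = 0.00248), Nop58 2.49-fold and Fbl 2.01-fold. Against qHF-SC the rises were 3.40-fold (1.77 ± 0.19 SE, adjusted p = 0.000693), 2.48-fold and 2.33-fold. The second probe set of Fbl and that of Nop56 differed in the same direction, by 1.12 and 1.42 on the log2 scale against aHF-SC. The Nop56 and Nop58 calls passed in every setting tried. The Fbl call against aHF-SC ended on leaving out aHF-SC replicate 1 or HF-TAC replicate 2 (0.101 to 0.113). The Fbl call against qHF-SC ended on leaving out qHF-SC replicate 1 (0.0511).

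The box H/ACA particles convert uridines of ribosomal RNA to pseudouridine, and the same 4 proteins are also part of the telomerase ribonucleoprotein. Dkc1, which encodes the pseudouridine synthase dyskerin, read 384 and 373 in qHF-SC, 407 and 338 in aHF-SC and 877 and 1283 in HF-TAC. Nhp2 read 946 and 1085 in qHF-SC, 1357 and 1251 in aHF-SC and 3605 and 3878 in HF-TAC. Gar1 read 307 and 329.6 in qHF-SC, 338 and 421 in aHF-SC and 726 and 1202 in HF-TAC. Each of these 3 core genes was highest in HF-TAC with no overlap, by 2.86-fold, 2.87-fold and 2.47-fold over aHF-SC in the order named. The Nhp2 rise had the smallest adjusted p of all 54 genes in both comparisons, 0.00114 against aHF-SC (1.52 ± 0.15 SE) and 0.000236 against qHF-SC (1.88 ± 0.15 SE, 3.69-fold). Over qHF-SC, Gar1 rose 2.94-fold and Dkc1 2.80-fold. The fourth core gene, Nop10, read 3109.5 and 3385 in qHF-SC, 3275 and 2438 in aHF-SC and 4063 and 3613 in HF-TAC. Its HF-TAC arrays also lay highest, but by 0.44 ± 0.19 SE over aHF-SC (adjusted p = 0.173) and 0.24 ± 0.19 SE over qHF-SC (0.436). The second probe set of Nop10 differed by 0.55 and 0.63 on the log2 scale in these comparisons. The other 2 probe sets of Dkc1 differed by 1.33 and 1.60 on the log2 scale against aHF-SC, and the second one of Nhp2 by 1.56. The Dkc1 and Nhp2 calls passed in every setting tried. The Gar1 call against aHF-SC ended on leaving out aHF-SC replicate 1 (0.0681), while that against qHF-SC passed in every setting that measured it.

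**Figure D3:**
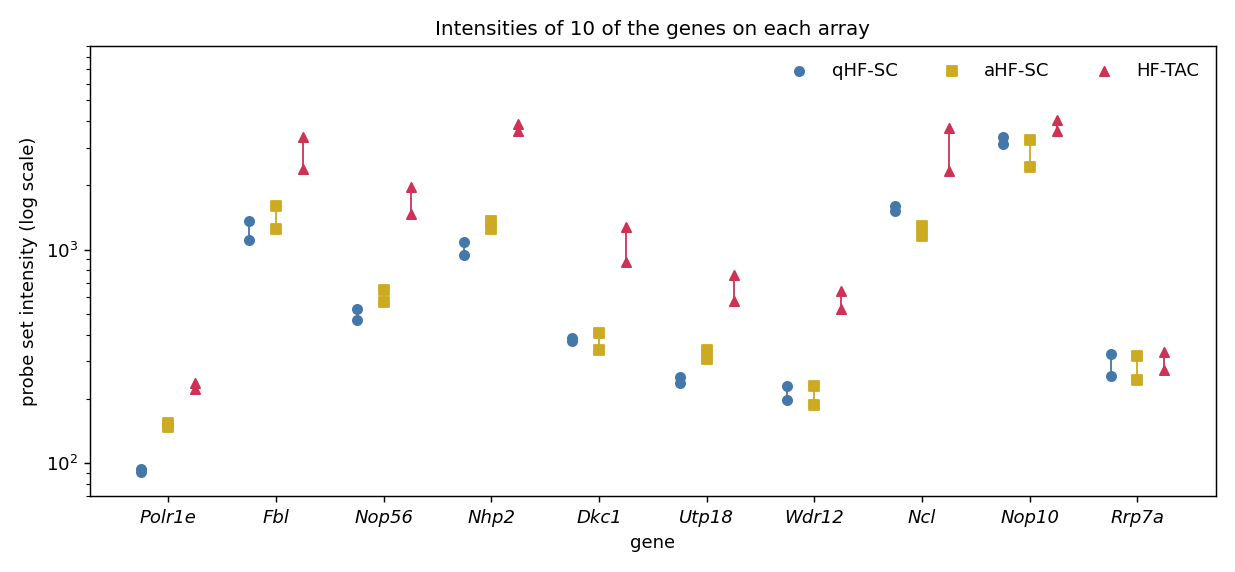
Intensities (log scale) of 10 of the genes on each array: circles are qHF-SC, squares aHF-SC and triangles HF-TAC, with a line joining the 2 arrays of a group. Nhp2 stood at 3605 and 3878 in HF-TAC and at no more than 1357 elsewhere, while Rrp7a overlapped in all groups.

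The small subunit class was the largest, with 22 genes. In HF-TAC against qHF-SC 14 were higher and 0 lower by limma and 14 had an unadjusted p under 0.05, and their median log2 difference was 0.74. In HF-TAC against aHF-SC 10 were higher and 0 lower by limma and 16 (72.7%, with 29.0% of all genes) had an unadjusted p under 0.05, and their median was 0.69. Of the same 22 genes 0 passed in aHF-SC against qHF-SC by limma and 3 (13.6%) had an unadjusted p under 0.05, and their median was 0.02.

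Among the subcomplexes that bind the nascent precursor first are those named UtpA and UtpB. Utp18 of UtpB read 236 and 255 in qHF-SC, 339 and 307 in aHF-SC and 575 and 762 in HF-TAC, a rise of 2.05-fold over aHF-SC and 2.70-fold over qHF-SC, with no overlap between any of the groups. Its second probe set, which read only 5.14 to 6.36 over the arrays, differed by -0.11 against aHF-SC. Utp15 of UtpA read 167 and 168 in qHF-SC, 158 and 163 in aHF-SC and 235 and 326 in HF-TAC and rose 1.72-fold and 1.65-fold. Utp4, also of UtpA, read 280.3 and 280.1 in qHF-SC, 319.8 and 357 in aHF-SC and 447 and 702 in HF-TAC. Its rise of 2.00-fold over qHF-SC passed, while that over aHF-SC did not (0.73 ± 0.22 SE, adjusted p = 0.0682). Wdr43, the counterpart of yeast Utp5, read 257 and 207 in qHF-SC, 293 and 194 in aHF-SC and 365 and 443 in HF-TAC, and Nol11, a component of the complex in animals, read 145 and 109.5 in qHF-SC, 131 and 133 in aHF-SC and 183 and 233 in HF-TAC. Both passed against qHF-SC alone, 1.74-fold and 1.64-fold higher, and had log2 differences of 0.75 and 0.64 against aHF-SC (adjusted p = 0.0711 and 0.0681). The Utp18 call against aHF-SC ended when its probe sets were averaged (0.0766) and on leaving out aHF-SC replicate 2 (0.0576), while that against qHF-SC passed in every setting tried. For Utp18 the log2 difference against qHF-SC was 0.74 when its probe sets were averaged. The Utp15 call against aHF-SC ended when its probe sets were averaged (0.0834) and on leaving out either qHF-SC array, either aHF-SC array or HF-TAC replicate 2 (0.0552 to 0.113). The Utp15 call against qHF-SC ended on leaving out either qHF-SC array or HF-TAC replicate 2 (0.11 to 0.119). The Utp4 call against qHF-SC ended on leaving out either qHF-SC array (0.0729 to 0.0763). The Wdr43 call against qHF-SC ended with quantile normalization (0.0516), when replicate number entered as a block (0.0551) and on leaving out either qHF-SC array or either HF-TAC array (0.0626 to 0.219). The Nol11 call against qHF-SC ended when replicate number entered as a block (0.059) and on leaving out qHF-SC replicate 2, either aHF-SC array or HF-TAC replicate 2 (0.0561 to 0.199).

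Other processome components were also higher in HF-TAC. Utp14a, which stimulates the helicase that frees the precursor from its guide RNA, read 241 and 205 in qHF-SC, 208 and 185 in aHF-SC and 416 and 507 in HF-TAC. It rose 2.34-fold over aHF-SC (1.23 ± 0.18 SE, adjusted p = 0.00378) and 2.06-fold over qHF-SC, and its aHF-SC arrays overlapped with the qHF-SC arrays. Utp14b, a retrotransposed copy of the same gene that is needed in the male germ line, read 69.8 and 63.0 in qHF-SC, 64.7 and 65.6 in aHF-SC and 63.1 and 68.2 in HF-TAC, with overlapping groups throughout. Utp20, a very large scaffold protein, read 179 and 156 in qHF-SC, 209 and 201 in aHF-SC and 287 and 375 in HF-TAC and rose 1.60-fold and 1.97-fold. The Utp20 arrays kept the order qHF-SC, aHF-SC, HF-TAC without overlap. Utp25 read 77.3 and 75.6 in qHF-SC, 94.6 and 119 in aHF-SC and 156 and 217 in HF-TAC, rose 1.74-fold and 2.41-fold, and kept the same order. The Utp14a calls passed in every setting tried. The Utp20 call against aHF-SC ended when replicate number entered as a block (0.0686), with an intensity trend (0.0558) and on leaving out either qHF-SC array, either aHF-SC array or HF-TAC replicate 2 (0.0674 to 0.184). The Utp20 call against qHF-SC ended on leaving out qHF-SC replicate 2 (0.054). The Utp25 call against aHF-SC ended when its probe sets were averaged (0.0542) and on leaving out either qHF-SC array, either aHF-SC array or HF-TAC replicate 2 (0.0675 to 0.173), while that against qHF-SC passed in every setting tried. For Utp25 the log2 difference against qHF-SC was 0.68 when its probe sets were averaged.

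Utp3 and Utp23 read lowest in the activated stem cells. Utp3 read 586 and 575 in qHF-SC, 431 and 356 in aHF-SC and 656 and 752 in HF-TAC. It was 1.79-fold higher in HF-TAC than in aHF-SC (adjusted p = 0.0135), while its difference from qHF-SC was 0.27 ± 0.17 SE (adjusted p = 0.302) and that of aHF-SC from qHF-SC -0.57 ± 0.17 SE (adjusted p = 0.1). Utp23 read 147 and 136 in qHF-SC, 126 and 126 in aHF-SC and 239.9 and 262 in HF-TAC and was 2.00-fold and 1.77-fold higher in HF-TAC than in aHF-SC and qHF-SC. The Utp23 probe set can cross-hybridise, and another one, chosen when such probe sets were left out, differed by -0.24 against aHF-SC and -0.71 against qHF-SC. The remaining 2 probe sets of Utp23 rose in HF-TAC, by 0.50 and 0.88 against aHF-SC and by 0.51 and 0.66 against qHF-SC. The Utp3 call against aHF-SC ended on leaving out aHF-SC replicate 2 or HF-TAC replicate 2 (0.0653 to 0.0852). The Utp23 call against aHF-SC ended when its probe sets were averaged (0.103) and without probe sets that can cross-hybridise (0.694). The Utp23 call against qHF-SC ended when its probe sets were averaged (0.28) and without probe sets that can cross-hybridise (0.105).

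Among the remaining small subunit factors, Rrp12, which takes part in the export of pre-ribosomes, read 71.5 and 51.6 in qHF-SC, 61.4 and 87.5 in aHF-SC and 126 and 204 in HF-TAC and rose 2.19-fold and 2.64-fold in HF-TAC over aHF-SC and qHF-SC. Nop9, an RNA-binding protein, read 136 and 145 in qHF-SC, 143 and 199 in aHF-SC and 259.7 and 337 in HF-TAC and rose 1.76-fold and 2.10-fold. Nol7 read 1171 and 1085 in qHF-SC, 1230.4 and 1001 in aHF-SC and 1631 and 1989 in HF-TAC and rose 1.62-fold and 1.60-fold. In all of these the HF-TAC arrays lay above the others, while the qHF-SC and aHF-SC arrays overlapped. The other 3 probe sets of Nol7 differed by -0.29 to -0.07 on the log2 scale in HF-TAC against qHF-SC. Rrp9, a protein of the box C/D particle that guides early cleavage, read 207 and 212 in qHF-SC, 252 and 287 in aHF-SC and 320.0 and 398 in HF-TAC and rose 1.70-fold over qHF-SC. Nol10 read 64.5 and 65.6 in qHF-SC, 82.0 and 74.0 in aHF-SC and 93.7 and 131 in HF-TAC and rose 1.70-fold over qHF-SC. Neither passed against aHF-SC (adjusted p = 0.162 and 0.127), where the arrays did not overlap. The Rrp12 call against aHF-SC ended when replicate number entered as a block (0.0542) and on leaving out either qHF-SC array, either aHF-SC array or HF-TAC replicate 2 (0.0527 to 0.179). The Rrp12 call against qHF-SC ended on leaving out qHF-SC replicate 2 or HF-TAC replicate 2 (0.0518 to 0.0797). The Nop9 call against aHF-SC ended on leaving out either qHF-SC array, aHF-SC replicate 1 or HF-TAC replicate 2 (0.0715 to 0.182). The Nop9 call against qHF-SC ended on leaving out qHF-SC replicate 1 (0.0579). The Nol7 call against aHF-SC ended when its probe sets were averaged (0.144), when replicate number entered as a block (0.0616) and on leaving out either qHF-SC array, either aHF-SC array or HF-TAC replicate 2 (0.0525 to 0.188). The Nol7 call against qHF-SC ended when its probe sets were averaged (0.874) and on leaving out either qHF-SC array or HF-TAC replicate 2 (0.0909 to 0.146). For Nol7 the log2 difference against qHF-SC was 0.04 when its probe sets were averaged. The Rrp9 call against qHF-SC ended on leaving out either qHF-SC array or HF-TAC replicate 2 (0.0691 to 0.0757). The Nol10 call against qHF-SC ended on leaving out either qHF-SC array or HF-TAC replicate 2 (0.101 to 0.105).

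The small subunit genes that passed in no comparison were Nol6, Nop14, Rrp36, Rrp7a, Utp11, Utp14b and Utp6. Their log2 differences in HF-TAC against qHF-SC ran from -0.26 for Utp6 to 0.39 for Rrp36. The probe sets of Utp6 disagreed: the other 2 differed by 0.81 and 1.35 in HF-TAC against qHF-SC and by 0.42 and 0.54 in aHF-SC against qHF-SC, where the one used differed by -0.40. In HF-TAC against qHF-SC the other probe sets of Nol6, Rrp7a and Utp11 also had the opposite sign, all within 0.18 of 0. Nop14 read 129.6 and 118 in qHF-SC, 83.5 and 80.8 in aHF-SC and 110.0 and 144 in HF-TAC, lowest in aHF-SC, with a log2 difference of -0.59 ± 0.18 SE in aHF-SC against qHF-SC (adjusted p = 0.109). Rrp7a and Nol6, both of the UtpC subcomplex, differed by 0.06 and -0.13 in HF-TAC against qHF-SC.

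The large subunit class held 13 genes, of which 7 were higher and 1 lower in HF-TAC than in qHF-SC, with a median log2 difference of 0.69. Against aHF-SC 4 were higher and 0 lower by limma and 8 had an unadjusted p under 0.05, and the median was 0.50. Pes1, Bop1 and Wdr12 encode the 3 proteins of the PeBoW complex, which is needed to process the precursor of the large subunit RNAs. Wdr12 read 198 and 230.0 in qHF-SC, 188 and 229 in aHF-SC and 528 and 638 in HF-TAC. Pes1 read 408 and 451 in qHF-SC, 431 and 495 in aHF-SC and 672 and 779 in HF-TAC. Bop1 read 171 and 180.4 in qHF-SC, 235 and 333 in aHF-SC and 344 and 406 in HF-TAC. The 3 partners did not share 1 pattern: the qHF-SC and aHF-SC arrays overlapped for Wdr12 and Pes1, whereas the Bop1 arrays lay higher in aHF-SC than in qHF-SC (log2 difference 0.67 ± 0.20 SE, adjusted p = 0.111). Wdr12 rose 2.80-fold over aHF-SC (adjusted p = 0.00215) and 2.72-fold over qHF-SC, and Pes1 1.57-fold and 1.69-fold. Bop1 rose 2.13-fold over qHF-SC (adjusted p = 0.00709), with 0.42 ± 0.20 SE against aHF-SC (adjusted p = 0.237). The second probe set of Pes1 differed by -0.15 against aHF-SC and -0.19 against qHF-SC. The Wdr12 calls passed in every setting tried. For Wdr12 the log2 difference against aHF-SC was 0.64 when its probe sets were averaged, and that against qHF-SC was 0.60 when its probe sets were averaged. The Pes1 call against aHF-SC ended when its probe sets were averaged (0.412) and on leaving out either qHF-SC array, either aHF-SC array or either HF-TAC array (0.0502 to 0.155). The Pes1 call against qHF-SC ended when its probe sets were averaged (0.295) and on leaving out either qHF-SC array or HF-TAC replicate 2 (0.05 to 0.0832). The Bop1 call passed in every setting tried.

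Nop16 and Rrp15, both assembly factors of the early large subunit, rose over both stem cell groups. Nop16 read 233 and 207 in qHF-SC, 271 and 335 in aHF-SC and 497 and 599 in HF-TAC and rose 1.81-fold and 2.48-fold. Rrp15 read 204 and 256 in qHF-SC, 211 and 226 in aHF-SC and 343 and 560.2 in HF-TAC and rose 2.01-fold and 1.92-fold. Its HF-TAC arrays lay far apart from each other, though both above the stem cell arrays. Nop2, a methyltransferase of the large subunit RNA, read 293 and 364 in qHF-SC, 368 and 398 in aHF-SC and 482 and 576 in HF-TAC and rose 1.61-fold over qHF-SC. Nol9, a polynucleotide kinase that acts on the spacer between the large subunit RNAs, read 64.8 and 36.8 in qHF-SC, 67.3 and 85.5 in aHF-SC and 90.5 and 127 in HF-TAC and rose 2.19-fold over qHF-SC. Neither passed against aHF-SC (adjusted p = 0.132 and 0.353). The Nop16 call against aHF-SC ended when its probe sets were averaged (0.0715) and on leaving out aHF-SC replicate 1 or HF-TAC replicate 2 (0.0872 to 0.0935), while that against qHF-SC passed in every setting tried. The Rrp15 call against aHF-SC ended on leaving out either qHF-SC array, either aHF-SC array or HF-TAC replicate 2 (0.05 to 0.125). The Rrp15 call against qHF-SC ended on leaving out either qHF-SC array or HF-TAC replicate 2 (0.064 to 0.156). The Nop2 call against qHF-SC ended on leaving out qHF-SC replicate 1 or HF-TAC replicate 2 (0.126 to 0.155). The Nol9 call against qHF-SC ended when replicate number entered as a block (0.0529) and on leaving out qHF-SC replicate 2 or HF-TAC replicate 2 (0.138 to 0.149). For Nol9 the log2 difference against qHF-SC was 0.49 when its probe sets were averaged.

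Nop53, which brings the RNA exosome to the pre-ribosome, went the other way. It read 4809 and 4987 in qHF-SC, 3344 and 4023 in aHF-SC and 3226 and 2999.8 in HF-TAC, 1.57-fold lower in HF-TAC than in qHF-SC (-0.65 ± 0.16 SE, adjusted p = 0.021). Its arrays descended from qHF-SC through aHF-SC to HF-TAC with no overlap. That probe set can cross-hybridise. Of the other 2 Nop53 probe sets, the brighter read 1260 and 1473 in qHF-SC and 990 and 996 in HF-TAC and differed by -0.46. The dimmer, which read 55.7 to 83.3 over the arrays, differed by 0.26. It alone stayed when probe sets with the suffix _x_at, _s_at or _a_at were left out. The Nop53 call against qHF-SC ended when its probe sets were averaged (0.23), without probe sets that can cross-hybridise (0.37) and on leaving out either qHF-SC array or HF-TAC replicate 2 (0.0825 to 0.108). The other 5 genes of the class, Nol12, Nol8, Rrp1, Rrp1b and Rrp8, passed in no comparison. In HF-TAC against qHF-SC the second probe sets of Nol12 and Rrp1 differed by 1.13 and 0.86, where those used differed by 0.15 and 0.46. The other 2 of Rrp1b differed by 0.51 and 0.92, where the one used differed by 0.42. For Nol8 they differed by -0.05 and 0.33, where the one used differed by -0.18. Nol8 read 132 and 122 in qHF-SC, 84.2 and 53.1 in aHF-SC and 109 and 115 in HF-TAC, with a log2 difference of -0.92 ± 0.23 SE in aHF-SC against qHF-SC (adjusted p = 0.0618), the most negative difference of the 54 genes there. Nol8 passed in that comparison with array weights (limma adjusted p = 0.0493) and when aHF-SC replicate 1 was left out (0.0416).

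The most abundant proteins of the nucleolus were measured through Ncl, Npm1, Nolc1 and Mybbp1a. Ncl, which encodes nucleolin, read 1599 and 1523 in qHF-SC, 1291 and 1154 in aHF-SC and 2329.6 and 3731 in HF-TAC. Npm1, which encodes nucleophosmin, read 5775 and 5429 in qHF-SC, 5217 and 3871 in aHF-SC and 7450.3 and 9588 in HF-TAC. In both, the HF-TAC arrays were highest and the aHF-SC arrays lowest, with no overlap. Ncl rose 2.42-fold over aHF-SC and 1.89-fold over qHF-SC, and Npm1 1.88-fold over aHF-SC, with 0.59 ± 0.21 SE against qHF-SC (adjusted p = 0.0749). Between the stem cell groups the differences were -0.35 ± 0.23 SE for Ncl and -0.32 ± 0.21 SE for Npm1 (adjusted p = 0.475 and 0.47). Nolc1, a chaperone of small nucleolar ribonucleoproteins, read 214 and 148 in qHF-SC, 268 and 243 in aHF-SC and 558 and 781 in HF-TAC and rose 2.59-fold over aHF-SC and 3.71-fold over qHF-SC (1.89 ± 0.24 SE, adjusted p = 0.00124), the largest rise of the 54 genes over qHF-SC. Mybbp1a, a protein of the RNA polymerase I environment, read 1010.4 and 1175 in qHF-SC, 1195 and 1269 in aHF-SC and 1630.5 and 2198 in HF-TAC and rose 1.74-fold over qHF-SC, with an adjusted p of 0.067 against aHF-SC. Npm1 has many processed pseudogenes, so its probe sets may share signal with other transcripts. Of the other 4 Ncl probe sets, 4 read higher in HF-TAC than in aHF-SC and 3 higher than in qHF-SC. The Ncl call against aHF-SC ended on leaving out aHF-SC replicate 2 (0.0641). The Ncl call against qHF-SC ended on leaving out either qHF-SC array or HF-TAC replicate 2 (0.0834 to 0.115). The Npm1 call against aHF-SC ended on leaving out aHF-SC replicate 2 or HF-TAC replicate 2 (0.105 to 0.125). The Nolc1 call against aHF-SC ended on leaving out aHF-SC replicate 2 (0.0543), while that against qHF-SC passed in every setting tried. The Mybbp1a call against qHF-SC ended on leaving out either qHF-SC array or HF-TAC replicate 2 (0.0552 to 0.113).

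The naming rule also took in 3 genes whose products are not known as ribosome assembly factors. Nol3 encodes a repressor of apoptosis, and Nol4 and Nol4l are named for a nucleolar location. Nol4l read 98.4 and 69.1 in qHF-SC, 67.0 and 155 in aHF-SC and 12.3 and 14.7 in HF-TAC, 7.55-fold lower in HF-TAC than in aHF-SC (-2.92 ± 0.38 SE, adjusted p = 0.00256) and 6.12-fold lower than in qHF-SC. The aHF-SC arrays of Nol4l lay far apart, and the HF-TAC arrays were near the lower quartile of all probe sets, which was between 9.72 and 10.3, so the size of the fall is uncertain. Nol3 read 105 and 118 in qHF-SC, 96.3 and 136 in aHF-SC and 90.1 and 64.7 in HF-TAC and differed by -0.54 ± 0.23 SE in HF-TAC against qHF-SC (adjusted p = 0.142). Nol4 stayed near that lower quartile on every array, with a log2 difference of -0.13 in HF-TAC against qHF-SC (adjusted p = 0.613). Without these 3 genes, 35 of 51 were higher and 1 lower in HF-TAC than in qHF-SC, and 27 higher and 0 lower than in aHF-SC by limma and 39 had an unadjusted p under 0.05. The Nol4l calls passed in every setting tried. For Nol4l the log2 difference against aHF-SC was -1.38 when its probe sets were averaged, -3.52 on leaving out aHF-SC replicate 1 and -2.31 on leaving out aHF-SC replicate 2, and that against qHF-SC was -1.11 when its probe sets were averaged.

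The step from quiescence to activation and the step from activated stem cell to matrix cell were set against each other in 1 contrast, chosen after the data were seen. The second step was larger for Utp3, Utp14a, Utp23 and Wdr12 and smaller for Nol4l, so that 4 and 1 of the 54 genes passed, against 2.17% and 3.54% of all genes. The difference between the steps was 1.53 ± 0.32 SE for Wdr12 (limma adjusted p = 0.0388), 1.41 ± 0.29 for Utp3 (0.037), 1.41 ± 0.30 for Utp14a (0.044) and 1.17 ± 0.25 for Utp23 (0.0447). For the other 49 genes the test did not separate the steps, although the median difference was 0.54 and 48 of 54 were above 0. Over all genes the median was 0.005, and 9185 of 18193 were above 0. The test calls depended on single arrays: without qHF-SC replicate 1, qHF-SC replicate 2, aHF-SC replicate 2 or HF-TAC replicate 2, 0 of the 54 genes passed, and 1 did when replicate number entered as a block.

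Between the stem cell groups the genes spread to both sides. The aHF-SC arrays lay wholly above the qHF-SC arrays for 21 of the 54 genes and wholly below for 10, against 25.7% and 25.1% of all genes. The 21 included 4 of the 5 polymerase genes, with Bop1 (0.67) and Polr1e (0.71) furthest up, and the 10 included Nol8, Nop14, Utp3, Ncl, Npm1 and Utp6, the last with its other 2 probe sets on the other side. In simulated data of this comparison with 18193 genes, a 2-fold change was recovered for 33% of the changed genes. A 4-fold change was recovered for 96%. Only 100 genes were changed at each size there, while 6.28% of all genes were called in the data. The Benjamini-Hochberg threshold is stricter when fewer genes change, so these shares do not give the power in the data.

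The promoters of the genes were searched for CACGTG, the E-box that Myc proteins bind, on windows of 250 bases before to 50 bases after each annotated start (RefSeq, build GRCm38.p6). The motif is its own reverse complement, so 1 search covers both strands, and each match is a description of letters, not a bound site. A window was found for 43 of the 54 genes. At least 1 window held the motif for 11 of the 43, or 25.6%, and for 10.2% of the 14452 measured genes with a window. Of all 32851 windows of this length 7.15% held it. It was present for 9 of 31 genes that were higher in HF-TAC than in qHF-SC and for 2 of the other 12. Among all measured genes with a window, 1990 were higher in that comparison, and 12.3% of those held it. A link between the motif and the rise was not tested. Nolc1, Nhp2, Nop56, Gar1 and Dkc1, the genes with the largest rises over qHF-SC among those with a window, held none. The windows of Utp18, Utp20 and Pes1 are shown as genes with a match that rose in HF-TAC, that of Rrp7a as a gene with a match whose arrays overlapped, and that of Nop56 as a strong riser without one. Capitals mark CACGTG, and each sequence is written along the strand of its gene.
Utp18, chr11:93885717-93886016, minus strand: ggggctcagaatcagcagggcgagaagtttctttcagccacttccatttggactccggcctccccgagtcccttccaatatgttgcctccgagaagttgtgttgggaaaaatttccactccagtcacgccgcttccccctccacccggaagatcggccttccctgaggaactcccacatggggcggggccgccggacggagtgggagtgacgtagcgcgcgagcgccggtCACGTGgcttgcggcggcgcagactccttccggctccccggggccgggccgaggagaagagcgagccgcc
Utp20, chr10:88826765-88827064, minus strand: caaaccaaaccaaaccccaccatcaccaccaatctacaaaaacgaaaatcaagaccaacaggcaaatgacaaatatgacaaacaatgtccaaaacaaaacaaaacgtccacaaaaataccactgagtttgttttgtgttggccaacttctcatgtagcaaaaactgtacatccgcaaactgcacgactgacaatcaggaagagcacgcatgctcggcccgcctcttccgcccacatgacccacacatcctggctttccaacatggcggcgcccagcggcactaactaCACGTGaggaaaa
Pes1, chr11:3963725-3964024, plus strand: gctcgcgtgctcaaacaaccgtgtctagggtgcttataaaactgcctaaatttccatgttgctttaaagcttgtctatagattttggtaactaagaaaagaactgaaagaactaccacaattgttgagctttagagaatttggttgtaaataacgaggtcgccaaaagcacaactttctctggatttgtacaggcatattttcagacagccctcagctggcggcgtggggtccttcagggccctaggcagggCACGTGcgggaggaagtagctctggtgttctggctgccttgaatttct
Rrp7a, chr15:83122752-83123051, minus strand: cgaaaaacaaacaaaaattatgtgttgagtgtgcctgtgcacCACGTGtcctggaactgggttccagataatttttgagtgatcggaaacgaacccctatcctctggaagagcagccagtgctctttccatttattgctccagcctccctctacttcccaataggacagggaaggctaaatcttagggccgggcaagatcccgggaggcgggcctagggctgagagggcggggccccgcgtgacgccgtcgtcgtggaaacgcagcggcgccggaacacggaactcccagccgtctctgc
Nop56, chr2:130274162-130274461, plus strand: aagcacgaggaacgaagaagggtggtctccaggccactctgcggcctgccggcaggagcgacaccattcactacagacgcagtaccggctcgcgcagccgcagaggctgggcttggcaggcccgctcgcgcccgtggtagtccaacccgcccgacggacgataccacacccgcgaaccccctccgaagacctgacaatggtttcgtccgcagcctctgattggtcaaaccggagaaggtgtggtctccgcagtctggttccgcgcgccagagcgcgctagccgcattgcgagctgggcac
The match begins 20 bases before the annotated start of Utp18, at base 38 of the Utp20 transcript and base 3 of that of Pes1, and 208 bases before the start of Rrp7a.

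The wider pathway was followed through a list of other ribosome biogenesis genes, of which 108 of 117 were measured. In HF-TAC against qHF-SC 60 were higher and 1 lower, and against aHF-SC 45 were higher and 0 lower by limma and 75 had an unadjusted p under 0.05, or 69.4%, with 29.0% of all genes. The medians were 0.63 and 0.59 on the log2 scale. In aHF-SC against qHF-SC 1 was higher, 1 lower and the median was 0.06. The called counts stand against 13.4% and 12.9% of all genes higher and lower in HF-TAC than in qHF-SC, and 8.97% and 8.57% than in aHF-SC. Without 1 array the calls in both directions numbered 6 to 48 against aHF-SC, with 6 without aHF-SC replicate 2 or HF-TAC replicate 2, 9 without aHF-SC replicate 1 and 27 without either qHF-SC array. Against qHF-SC they numbered 27 to 61, with 27 without qHF-SC replicate 2, 30 without qHF-SC replicate 1 and 31 without HF-TAC replicate 2. Exosc8, a subunit of the RNA exosome that trims ribosomal RNA, read 276 and 309 in qHF-SC, 446 and 393 in aHF-SC and 974 and 1215 in HF-TAC, 2.60-fold and 3.72-fold higher in HF-TAC than in aHF-SC and qHF-SC. Pno1, a late factor of the small subunit, read 248 and 238 in qHF-SC, 395 and 344 in aHF-SC and 699.8 and 1009 in HF-TAC and rose 2.28-fold and 3.46-fold. Heatr1, a large UtpA protein, read 174 and 165 in qHF-SC, 258 and 248 in aHF-SC and 476 and 639.8 in HF-TAC and rose 3.25-fold over qHF-SC. All of these were stepped upward from qHF-SC through aHF-SC to HF-TAC. Taf1d, of the selectivity factor that recruits RNA polymerase I, read 109 and 78.3 in qHF-SC, 128 and 63.9 in aHF-SC and 265 and 237 in HF-TAC and rose 2.77-fold over aHF-SC. The Exosc8 calls passed in every setting tried. For Exosc8 the log2 difference against aHF-SC was 0.67 when its probe sets were averaged, and that against qHF-SC was 0.95 when its probe sets were averaged. The Pno1 call against aHF-SC ended on leaving out aHF-SC replicate 2 (0.055), while that against qHF-SC passed in every setting tried. The Heatr1 call passed in every setting tried. For Heatr1 the log2 difference against qHF-SC was 0.82 when its probe sets were averaged. The Taf1d call against aHF-SC ended on leaving out aHF-SC replicate 2 or either HF-TAC array (0.0615 to 0.0748). For Taf1d the log2 difference against aHF-SC was 0.88 when its probe sets were averaged.

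Against this direction, Znhit6, an assembly factor of box C/D particles, read 419.5 and 479.9 in qHF-SC, 338 and 298 in aHF-SC and 199.7 and 317 in HF-TAC and was 1.78-fold lower in HF-TAC than in qHF-SC (adjusted p = 0.0364). The pair of genes that passed between the stem cell groups were Bysl, which acts in small subunit maturation, and the helicase gene Ddx52. Bysl read 111 and 127 in qHF-SC, 203 and 247 in aHF-SC and 298 and 350.5 in HF-TAC, 1.88-fold higher in aHF-SC (adjusted p = 0.0301). Ddx52 read 202 and 191 in qHF-SC, 97.3 and 110.1 in aHF-SC and 149 and 220.1 in HF-TAC, 1.90-fold lower in aHF-SC (adjusted p = 0.0481). The Znhit6 call against qHF-SC ended on leaving out either qHF-SC array, either aHF-SC array or HF-TAC replicate 1 (0.0549 to 0.176). The Bysl call in aHF-SC against qHF-SC ended when its probe sets were averaged (0.0532) and on leaving out either qHF-SC array or either aHF-SC array (0.0756 to 0.143). The Ddx52 call in aHF-SC against qHF-SC ended when its probe sets were averaged (0.134), with centring on the median (0.0612), when replicate number entered as a block (0.0603), with an intensity trend (0.0534) and on leaving out either qHF-SC array or either aHF-SC array (0.127 to 0.209).

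Of 19 measured regulators of ribosomal RNA synthesis, 4 were higher and 2 lower in HF-TAC than in qHF-SC, and 2 higher and 1 lower than in aHF-SC. These are 21.1% and 10.5% against qHF-SC, where all genes gave 13.4% and 12.9%, and 10.5% and 5.26% against aHF-SC, where all genes gave 8.97% and 8.57%, so the shares against aHF-SC lay near those of all genes. Mycn, a Myc family factor known to drive ribosome genes, read 43.0 and 36.5 in qHF-SC, 31.7 and 55.1 in aHF-SC and 614 and 1068 in HF-TAC. It was 19.4-fold higher in HF-TAC than in aHF-SC (4.28 ± 0.33 SE, adjusted p = 0.00048) and 20.4-fold higher than in qHF-SC. Its relative Myc read 619.8 and 500.0 in qHF-SC, 514 and 531 in aHF-SC and 893 and 468 in HF-TAC, with overlapping groups and a log2 difference of 0.31 ± 0.29 SE against aHF-SC (adjusted p = 0.595). The Myc antagonist Mxd4 read 972 and 1252 in qHF-SC, 993 and 1181 in aHF-SC and 289 and 220.1 in HF-TAC, 4.30-fold and 4.38-fold lower in HF-TAC than in aHF-SC and qHF-SC, and Mxi1, of the same family, read 812 and 714 in qHF-SC, 380.2 and 408 in aHF-SC and 436 and 373 in HF-TAC and was 1.93-fold lower than in qHF-SC in aHF-SC. Mxi1 was also 1.89-fold lower in HF-TAC than in qHF-SC. In aHF-SC against qHF-SC 0 of the 19 regulators were higher and 1, Mxi1, was lower (5.26%). All genes gave 3.07% higher and 3.21% lower there. The histone demethylase gene Kdm2b, read at 312 and 257 in qHF-SC, 366 and 509.8 in aHF-SC and 649 and 739.6 in HF-TAC, rose 2.45-fold over qHF-SC. Baz2a, of a complex that silences ribosomal DNA, read 427 and 340.0 in qHF-SC, 343 and 384 in aHF-SC and 588 and 1002 in HF-TAC and rose 2.12-fold over aHF-SC and 2.01-fold over qHF-SC. The Mycn calls passed in every setting tried. For Mycn the log2 difference against aHF-SC was 1.81 when its probe sets were averaged, and that against qHF-SC was 1.79 when its probe sets were averaged. The Mxd4 calls passed in every setting tried. For Mxd4 the log2 difference against aHF-SC was -1.41 when its probe sets were averaged, and that against qHF-SC was -1.16 when its probe sets were averaged and -1.46 without probe sets that can cross-hybridise. The Mxi1 call in aHF-SC against qHF-SC ended on leaving out either qHF-SC array or either aHF-SC array (0.0717 to 0.104). The Mxi1 call against qHF-SC passed in every setting tried. The Kdm2b call passed in every setting tried. The Baz2a call against aHF-SC ended on leaving out either aHF-SC array or HF-TAC replicate 2 (0.1 to 0.128). The Baz2a call against qHF-SC ended on leaving out either qHF-SC array or HF-TAC replicate 2 (0.0614 to 0.156).

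**Figure D4:**
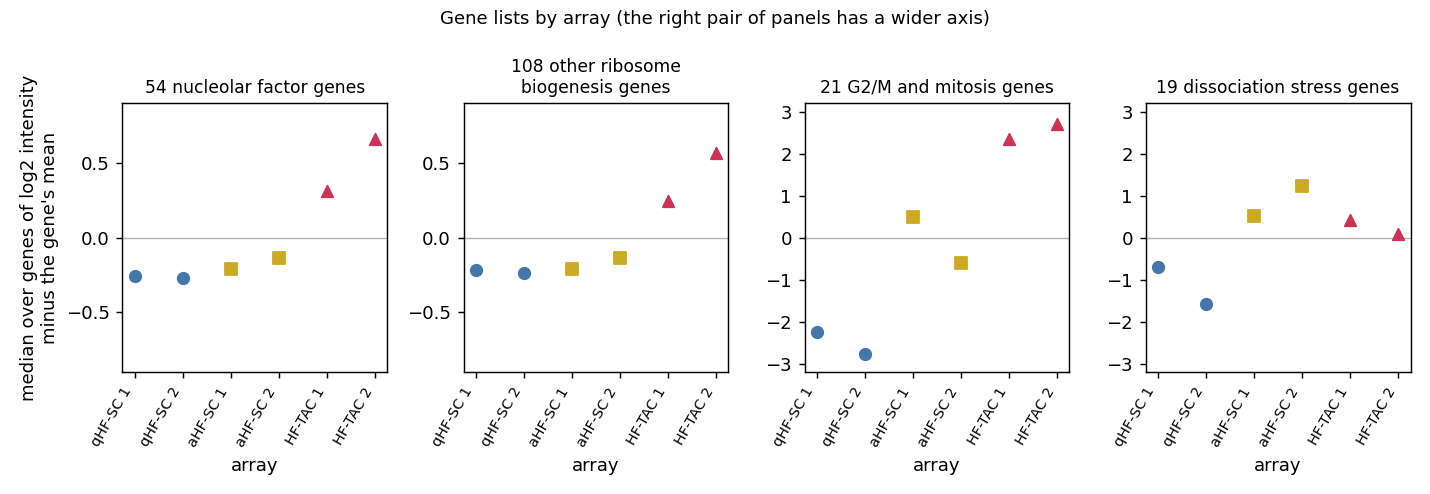
Median over each list of the log2 intensity minus that gene's mean over the 6 arrays, by array (circles qHF-SC, squares aHF-SC, triangles HF-TAC). The nucleolar factor genes stood at -0.25 and -0.27 in qHF-SC, -0.21 and -0.13 in aHF-SC and 0.31 and 0.66 in HF-TAC, whereas the mitosis genes stood at 0.50 and -0.60 in aHF-SC, against -2.24 and -2.77 in qHF-SC.

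Other features of the arrays moved in part with these genes. The median of the mitosis list was -2.24 and -2.77 in qHF-SC, 0.50 and -0.60 in aHF-SC and 2.35 and 2.72 in HF-TAC on the same centred log2 scale. Mitosis and nucleolar genes were thus both highest in HF-TAC and both higher in its replicate 2. They parted in aHF-SC against qHF-SC, where the median log2 difference was 2.36 for the mitosis list and 0.07 for the 54 genes. The dissociation stress list stood at -0.70 and -1.59 in qHF-SC, 0.51 and 1.24 in aHF-SC and 0.41 and 0.09 in HF-TAC. Of its 19 genes 12 were higher and 1 lower in HF-TAC than in qHF-SC, with a median log2 difference of 1.33, so it moved with the nucleolar genes in that comparison. Against aHF-SC 0 were higher and 2 lower by limma, with a median of -0.67 and 11 of 19 at an unadjusted p under 0.05. The ratio of the signal at the 3′ end to that at the 5′ end, a measure of RNA integrity, was 1.49 and 1.33 for Gapdh in qHF-SC, 1.41 and 1.13 in aHF-SC and 1.17 and 1.04 in HF-TAC, lowest in HF-TAC replicate 2. For Actb it was 3.35 and 2.86, 3.32 and 2.22, and 3.01 and 2.82, with no such order. Of 8 melanocyte genes 4 were higher and 1 lower in HF-TAC than in qHF-SC, and 7 had a log2 difference above 0. Their summed intensity was 635 to 978 in HF-TAC, 469 to 550.5 in aHF-SC and 1815 to 1984 in qHF-SC. The brightest gene alone read 1581 and 1801 in qHF-SC, so the sum there was mostly that gene. Of 8 fibroblast genes 1, Dcn, was higher and 1 lower in HF-TAC than in aHF-SC, and their summed intensity was 3838 to 6370 against 435 to 720.2. Of 6 muscle genes 2, Acta2 and Tagln, were higher in aHF-SC than in qHF-SC and lower in HF-TAC than in aHF-SC, and the summed intensity was 4556 and 2304 in aHF-SC, 217 and 190.3 in qHF-SC and 374 and 523 in HF-TAC. Of 10 differentiated keratinocyte genes 5 were higher and 2 lower in HF-TAC than in aHF-SC, with a median log2 difference of 1.54, and 2 were higher and 2 lower than in qHF-SC, with a median of -0.03. Their summed intensity was 51150 and 52643 in qHF-SC, 31289 and 35660 in aHF-SC and 45685 and 29803 in HF-TAC. The part of these features in the results was not tested.

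Single arrays set how many of the genes passed. In HF-TAC against qHF-SC 19 to 33 of the 54 genes were higher with 1 array left out, fewest without qHF-SC replicate 2 (19), qHF-SC replicate 1 (20) and HF-TAC replicate 2 (21). In HF-TAC against aHF-SC 12 to 29 were higher, with 12 without aHF-SC replicate 2 or HF-TAC replicate 2, 14 without aHF-SC replicate 1 and 17 without either qHF-SC array. The median log2 difference stayed between 0.59 and 0.93 against qHF-SC and between 0.54 and 0.84 against aHF-SC, lowest in each without HF-TAC replicate 2. The calls that passed whichever array was left out numbered 17 of 37 against qHF-SC and 8 of 28 against aHF-SC, the latter being Dkc1, Nhp2, Nop56, Nop58, Utp14a, Utp23, Wdr12 and the fall of Nol4l.

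**Figure D5:**
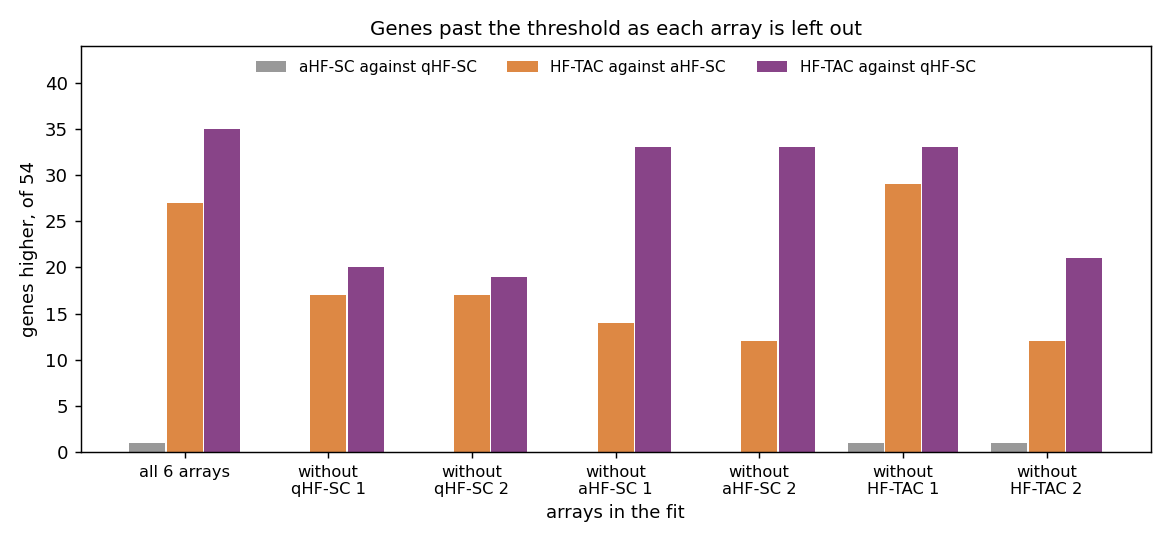
Number of the 54 genes higher at a limma adjusted p under 0.05 (bars, from 0) in each comparison, with all 6 arrays and with each array left out in turn. The count in HF-TAC against qHF-SC runs from 19 to 35 and that in HF-TAC against aHF-SC from 12 to 29, while aHF-SC against qHF-SC never exceeds 1.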

How the data were processed

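RNA of each sorted population was measured on Affymetrix mouse arrays, with 45101 probe sets on each of 6 arrays. The values deposited by the authors are intensities on a linear scale. Per the submitters' processing notes they were made with RMA, which corrects background, equalises the distribution of all arrays and summarises probes, so that a change shared by most genes would be scaled away. The software version is not given in the sources used here. The number of arrays, 2 per group, limits the precision.

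Log2 intensities were computed from them. Probe sets were named through the platform annotation: 34945 had 1 symbol, 932 several, 9160 none, and 64 controls were left out. For each gene the probe set with the highest mean was kept, which gave 18193 genes. Group means were fitted to all 6 arrays with limma 3.58.1 in R 4.3.3 (residual degrees of freedom 3), tests were two-sided, and p-values were adjusted by Benjamini-Hochberg over 18193 genes with a threshold of 0.05. Where leaving out an array left a group with 1 array, that array was assumed to vary like the other groups. On simulated data with 18193 genes, 2-fold and 4-fold changes were recovered for 21% and 96% of the changed genes in HF-TAC against aHF-SC. In HF-TAC against qHF-SC they were recovered for 29% and 95%. The simulation changed 100 genes at each size, while 17.5% and 26.3% of all genes were called in these comparisons of the data. Its threshold was therefore stricter, and the shares do not give the power in the data.

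Values by array are given for each of the 54 genes that passed in at least 1 comparison, and in a role class with fewer than 2 such genes for those with the smallest p until 2 were named. Of the other biogenesis genes and regulators, up to 3 per direction and comparison with the largest differences are named. Myc and Nol8, Nop10, Nop14 and Utp14b were singled out after their values were seen, as was the second probe set of any gene. The genes and lists were chosen with earlier results of these data known. Alternatives were the choice of probe set, scaling, a filter on dim genes, the replicate number as a block, an intensity trend, array weights and each array left out.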

Additional observations from a re-analysis of the deposited data

How the results depend on the processing

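The rise of the 54 genes in HF-TAC kept its direction in its median under all settings run. With all 6 arrays, 23 to 30 of them were called in HF-TAC against aHF-SC (28 as reported) and 34 to 38 in HF-TAC against qHF-SC (37 as reported), all within 1.5 times. The genes were not all the same: with the mean of probe sets 19 of the 28 and 31 of the 37 were still called. Leaving out 1 array gave 13 to 30 calls in HF-TAC against aHF-SC and 20 to 35 against qHF-SC, where fewer arrays enter the fit. In aHF-SC against qHF-SC the 1 call became 0 with the mean of probe sets, without cross-hybridising probe sets, with the intensity trend and when replicate number entered as a block, 2 with array weights, and 0 to 1 without 1 array. The median there was 0.16 with the mean of probe sets and 0.035 to 0.146 without 1 array. Over all genes, leaving out 1 array gave 124 to 1354, 1643 to 2786 and 2893 to 4588 calls in aHF-SC against qHF-SC, HF-TAC against aHF-SC and HF-TAC against qHF-SC. Of the other biogenesis genes, 0 were called in aHF-SC against qHF-SC with the mean of probe sets, 1 each with centring on the median, the block and the trend, and 0 to 3 without 1 array. Without 1 array 6 to 48 of them were called in HF-TAC against aHF-SC and 27 to 61 against qHF-SC. The 5 calls for a difference between the steps became 3 with the mean of probe sets, without cross-hybridising probe sets or with centring, 1 with the block and 0 to 6 without 1 array. Without cross-hybridising probe sets Nop53 reversed to 0.26 in HF-TAC against qHF-SC (limma adjusted p = 0.37), and Utp23 to -0.24 against aHF-SC (0.694) and -0.71 against qHF-SC (0.105), because another probe set stood for each gene. That setting also left out probe sets with the suffix _a_at. The Nop53 one differed by -0.46 against qHF-SC, without a reversal, and the Utp23 one by 0.88 against aHF-SC and 0.66 against qHF-SC. The cause of the other changes was not tested.

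The labels give the groups the same replicate numbers. Deviations of arrays with the same number from their group means were at most weakly correlated (r = 0.06, -0.13 and 0.08 over genes). With so few arrays per group, a low r cannot show that samples with the same number were unpaired. Whether the numbers pair the samples is therefore not known. With replicate number as a block, 0, 25 and 34 of the 54 genes were called in the 3 comparisons, in the order above. Scaling moved the median of all genes by less than 0.1 on the log2 scale.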
